A study of Homo sapiens with 18 samples.

Results

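The 45 cell cycle and DNA replication genes described here fall into a replication arm and a mitosis arm. The replication members are 20 genes of the initiation and running of DNA replication. The mitosis members are 25 genes of entry into and passage through mitosis. Members and arms were chosen with earlier results of these data known, so counts and medians over them carry no test. A gene was measured where at least 1 of its probes, the bead-bound oligonucleotides that capture its transcript, had a detection p under 0.05 on at least 3 of 18 arrays, and the probe with the highest mean log2 intensity stood for it. By this rule 44 of the 45 genes were measured, 19 replication and 25 mitosis members, of 13712 genes in all. The one gene not measured was CCNE2, a partner of CDK2, whose probe was detected on 0 arrays. The samples were 3 human colorectal cancer cell lines grown in culture, HCT116, LS174T and SW480. Each line was given 50 nM calcitriol, which is the active hormone made from vitamin D, dissolved in ethanol, or the ethanol vehicle alone, and total RNA was taken 16 h later. Each of the 6 groups (calcitriol and ethanol in HCT116, in LS174T and in SW480) has 3 arrays, and both treatments were given in medium with charcoal-treated serum. Each line is a single established tumour line. Whether the 3 arrays of a group came from 3 cultures is not stated, so every p-value here is set against a spread between arrays that may be purely technical.

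A cell copies its DNA in S phase and divides it in mitosis, and the transcripts for these tasks rise and fall in 2 waves. The first wave, late in G1 and in S phase, is switched on by E2F transcription factors once cyclin-dependent kinases release them from the retinoblastoma protein, and it includes the MCM helicase, the factors that load it, and the enzymes that make deoxynucleotides. The second wave, in G2 and mitosis, is driven by the MuvB complex with B-MYB and FOXM1 and includes cyclin B, the mitotic kinases and the kinetochore. In bulk RNA the level of either wave depends on how many cells are in that phase and on how much transcript each such cell holds, and the arrays cannot tell these apart. Calcitriol acts through the vitamin D receptor and is known in many cell types for slowing progress through G1.

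The promoters of the members are shown first because the 2 waves are usually told apart by short motifs there. RefSeq promoter windows of assembly GRCh38.p14, from 250 bases before to 50 bases after the transcription start, matched 36 of the 44 measured members, 17 replication and 19 mitosis members. On either strand, a window with any of the E2F words TTTGGCGC, TTTCGCGC, TTTCCCGC and TTTGCCGC was found for 10 of 17 replication members (58.8%) and 3 of 19 mitosis members (15.8%), against 3.33% of 27305 gene promoters of the same length. TTTGAA, the core of the cell cycle genes homology region (CHR) that MuvB binds, stood in 14 of 19 mitosis members (73.7%) and 1 of 17 replication members (5.88%), against 15.4% of all promoters. CCAAT, the site of the factor NF-Y, stood in 16 of 19 mitosis members (84.2%) and 11 of 17 replication members (64.7%), against 35.7% of all promoters. The same 2 arms showed the same order in the other genes of each pathway, with E2F words in 11 of 38 other replication genes (28.9%) and CHR words in 32 of 53 other mitosis genes (60.4%). Motif counts describe letters in a window and not binding.

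**Figure D1:**
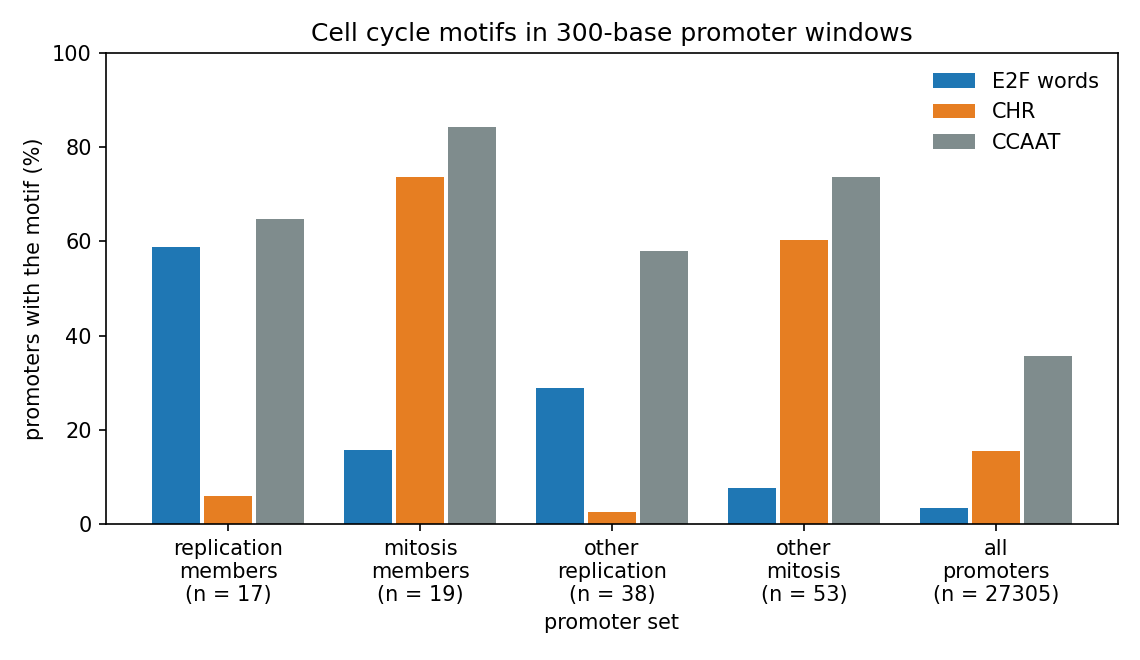
Share of promoter windows (y axis, percent) that hold an E2F word, the CHR core or CCAAT, for replication members, mitosis members, the other genes of both pathways and all promoters (x axis, with the number of windows). E2F words reached 58.8% in replication members and CHR reached 73.7% in mitosis members, against 3.33% and 15.4% of all promoters.

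The 250 bases before the start are printed for the 7 members whose response to calcitriol, or its difference between lines, passed the test below. Capitals mark an E2F word, the CHR core, CCAAT, or TTTGGCGG, a close relative of the E2F words that was added after these sequences were read. TTTGGCGG stands in 3 of 17 replication members (17.6%), 2 of 19 mitosis members (10.5%) and 0.681% of all promoters. Those 3 replication members are among the sequences read, so their share is not independent of how the word was chosen. A word on the other strand is capitalised as its reverse complement. The windows lie on the plus strand, except that of CENPE on the minus strand.
CDT1, chr16:88803539-88803788: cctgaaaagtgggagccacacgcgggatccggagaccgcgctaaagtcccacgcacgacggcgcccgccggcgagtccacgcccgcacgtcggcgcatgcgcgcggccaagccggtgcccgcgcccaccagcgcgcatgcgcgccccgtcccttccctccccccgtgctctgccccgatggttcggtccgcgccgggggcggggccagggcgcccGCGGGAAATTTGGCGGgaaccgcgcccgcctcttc
CDC6, chr17:40287629-40287878: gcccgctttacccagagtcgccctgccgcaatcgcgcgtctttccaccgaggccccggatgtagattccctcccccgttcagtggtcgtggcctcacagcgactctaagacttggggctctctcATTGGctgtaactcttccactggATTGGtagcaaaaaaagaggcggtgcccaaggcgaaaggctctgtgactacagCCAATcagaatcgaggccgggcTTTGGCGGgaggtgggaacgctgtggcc
CDC45, chr22:19479670-19479919: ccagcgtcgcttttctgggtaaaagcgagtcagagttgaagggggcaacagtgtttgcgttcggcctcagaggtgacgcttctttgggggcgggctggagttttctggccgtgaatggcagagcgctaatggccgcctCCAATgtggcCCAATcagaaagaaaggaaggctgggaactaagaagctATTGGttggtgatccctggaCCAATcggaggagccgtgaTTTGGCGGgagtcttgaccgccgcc
RRM2, chr2:10122489-10122738: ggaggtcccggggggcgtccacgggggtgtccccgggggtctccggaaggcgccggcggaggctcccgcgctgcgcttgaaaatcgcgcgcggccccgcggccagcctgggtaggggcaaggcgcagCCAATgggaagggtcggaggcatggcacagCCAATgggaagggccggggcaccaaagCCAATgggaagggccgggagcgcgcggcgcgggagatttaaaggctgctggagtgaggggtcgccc
CDC20, chr1:43358731-43358980: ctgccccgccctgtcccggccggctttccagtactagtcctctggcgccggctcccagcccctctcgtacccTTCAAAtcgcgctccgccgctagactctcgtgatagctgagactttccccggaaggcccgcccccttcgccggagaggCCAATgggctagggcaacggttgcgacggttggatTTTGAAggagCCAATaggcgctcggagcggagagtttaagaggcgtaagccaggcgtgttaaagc
CENPE, chr4:103198344-103198593: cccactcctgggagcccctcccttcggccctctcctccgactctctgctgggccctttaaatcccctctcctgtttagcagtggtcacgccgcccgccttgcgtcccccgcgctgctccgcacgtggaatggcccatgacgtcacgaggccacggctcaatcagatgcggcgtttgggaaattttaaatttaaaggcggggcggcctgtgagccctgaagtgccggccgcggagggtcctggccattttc
CENPF, chr1:214602945-214603194: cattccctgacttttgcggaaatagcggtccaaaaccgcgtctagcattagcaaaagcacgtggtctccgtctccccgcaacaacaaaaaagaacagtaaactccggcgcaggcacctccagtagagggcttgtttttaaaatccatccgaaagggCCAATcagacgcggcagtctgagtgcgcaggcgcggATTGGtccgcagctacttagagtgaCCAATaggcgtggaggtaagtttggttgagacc
The 3 replication members CDC6, CDT1 and CDC45 carry TTTGGCGG from 25 to 28 bases before the start, on the coding strand. In CDT1 it directly follows an E2F word on the other strand. CDC6 has its E2F word 8 bases after the start and CENPF its CHR core 41 bases after it, both outside the stretch printed. CDC20 shows 2 CHR cores. CENPE, RRM2 and CDC45 show neither an E2F word nor a CHR core in the whole window, although RRM2 has 3 CCAAT boxes and CDC45 has 4 beside its TTTGGCGG.

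Between 19295 and 21028 probes were detected per array, 40.8% to 44.4% of the probes, and the number of arrays limits the precision. Arrays of a group correlated at 0.991 to 0.993. The epithelial genes EPCAM, KRT8, KRT18, KRT19 and CDX2 were detected on all 6 arrays of each line, while CDX1 and LGALS4 were detected in LS174T alone and VIL1 and CDH17 on 0 HCT116 arrays. Of the leukocyte and endothelial genes, PTPRC, CD3E, PECAM1 and CDH5 were not measured, while LYZ was detected on 6 HCT116, 6 LS174T and 4 SW480 arrays, CD14 on 4, 5 and 5, and VWF on 1, 0 and 2. Of the fibroblast genes LUM was detected in LS174T, PDGFRB in SW480 and COL1A1 in HCT116 and SW480. With calcitriol LUM fell by 0.74 log2 units (limma adjusted p = 0.00959) and KRT19 by 0.57 (adjusted p = 0.000217) in LS174T, LGALS4 rose there by 0.47 (adjusted p = 0.0176), and COL1A1 rose by 1.00 in SW480 (adjusted p = 0.00251), and their part in the results below was not tested. The residual SD between arrays of a group had a median of 0.108 log2 units over the members, against 0.158 over all genes. All levels are normalised log2 intensities and all differences are in log2 units. A difference of means was tested with limma on all 18 arrays, its p-values adjusted over the 13712 genes, and it passed at an adjusted p under 0.05.

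The lines differed in most of these genes before any treatment. In ethanol 39 of 44 members (88.6%) differed among the lines by limma's F-test, against 79.7% of all genes. HCT116 was the lowest line for 31 members and SW480 the highest for 30. Between SW480 and HCT116, 33 members were higher and 4 lower in SW480, with a median difference of 0.53, where 64.4% of all genes differed (32.8% higher, 31.6% lower) with a median of 0.01. LS174T was higher than HCT116 for 23 members and lower for 6, where 60.4% of all genes differed (31.1% higher, 29.3% lower). SW480 was higher than LS174T for 24 members and lower for 6, where 63.8% of all genes differed (31.9% higher, 32% lower).

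Among the replication members, the range of the 3 ethanol means was widest for RRM2, MCM4 and MCM2. RRM2, the small subunit of ribonucleotide reductase, which makes deoxynucleotides, had 10.99, 11.05 and 11.11 on the SW480 arrays, 10.35, 10.67 and 10.48 on the LS174T arrays and 9.38, 9.43 and 9.37 on the HCT116 arrays. The 3 lines did not overlap, and SW480 lay 1.66 above HCT116 (limma adjusted p = 1.67e-10). MCM4, a subunit of the replicative helicase, had 12.20, 11.97 and 11.94 in SW480, 10.92, 10.95 and 11.02 in LS174T and 10.44, 10.66 and 10.46 in HCT116, in the same order and again without overlap. For MCM2, another helicase subunit, SW480 had 11.44, 11.31 and 11.47, LS174T had 10.68, 10.77 and 10.57, and HCT116 had 9.90, 10.13 and 10.16. CDT1, which loads the helicase at origins, ran against this order. It had 9.03, 8.77 and 9.12 in SW480, 9.51, 9.51 and 9.66 in LS174T and 10.05, 9.90 and 10.05 in HCT116, so that SW480 lay 1.03 log2 units under HCT116 with no overlap. The thymidine salvage kinase TK1 was also highest in HCT116.

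The smallest ranges among replication members were those of RRM1, E2F1 and MCM6. RRM1, the large subunit of ribonucleotide reductase, had 12.44, 12.49 and 12.34 in SW480, 11.94, 12.21 and 12.06 in LS174T and 11.94, 12.15 and 12.09 in HCT116, and the last 2 lines overlapped (difference 0.01, adjusted p = 0.913). E2F1, a transcription factor of the first wave, had 6.95, 7.70 and 7.55 in SW480, 6.95, 7.38 and 7.34 in LS174T and 7.50, 7.75 and 7.52 in HCT116. SW480 overlapped both other lines, LS174T lay below HCT116 without overlap, and the F-test among lines did not pass (adjusted p = 0.348). MCM6 had 12.32, 12.38 and 12.26 in SW480, 12.30, 12.44 and 12.30 in LS174T and 11.77, 11.86 and 12.01 in HCT116, which was the lowest line without overlap.

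Among the mitosis members, FOXM1, TTK and TOP2A spanned the widest range in ethanol. FOXM1, a transcription factor of the second wave, had 10.92, 10.79 and 10.96 in SW480, 10.52, 10.36 and 10.49 in LS174T and 9.30, 9.32 and 9.41 in HCT116. The lines were separate, with SW480 1.55 above HCT116 (limma adjusted p = 2.75e-10). TTK, the spindle checkpoint kinase, and TOP2A, the topoisomerase that untangles chromosomes, were lowest in LS174T instead. TTK had 10.78, 11.07 and 10.83 in SW480, 9.44, 9.47 and 9.53 in LS174T and 10.25, 10.31 and 10.22 in HCT116. TOP2A had 12.51, 12.45 and 12.36 in SW480, 10.97, 11.08 and 11.32 in LS174T and 11.20, 11.40 and 11.34 in HCT116, with LS174T and HCT116 overlapping (difference −0.19, adjusted p = 0.0871). CCNB1, the cyclin B that starts mitosis with CDK1, was highest in HCT116 and lay 0.85 log2 units lower in LS174T (adjusted p = 1.56e-06).

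BIRC5, CDK1 and MAD2L1 had the smallest ranges among mitosis members, and none of the 3 passed the F-test among lines. BIRC5, which encodes survivin, a subunit of the chromosomal passenger complex, had 10.54, 10.82 and 10.83 in SW480, 10.79, 10.65 and 10.70 in LS174T and 10.73, 10.82 and 10.94 in HCT116. CDK1, the mitotic kinase, had 11.66, 11.72 and 11.69 in SW480, 11.59, 11.44 and 11.68 in LS174T and 11.55, 11.53 and 11.61 in HCT116. MAD2L1, a checkpoint protein, had 11.75, 11.68 and 11.77 in SW480, 11.87, 11.97 and 11.62 in LS174T and 11.60, 11.63 and 11.70 in HCT116. All 3 lines overlapped for BIRC5 and MAD2L1. For CDK1 LS174T overlapped both other lines, and SW480 lay above HCT116 without overlap. BUB1B (adjusted p = 0.0926) was the remaining member with no line difference past the threshold.

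**Figure D2:**
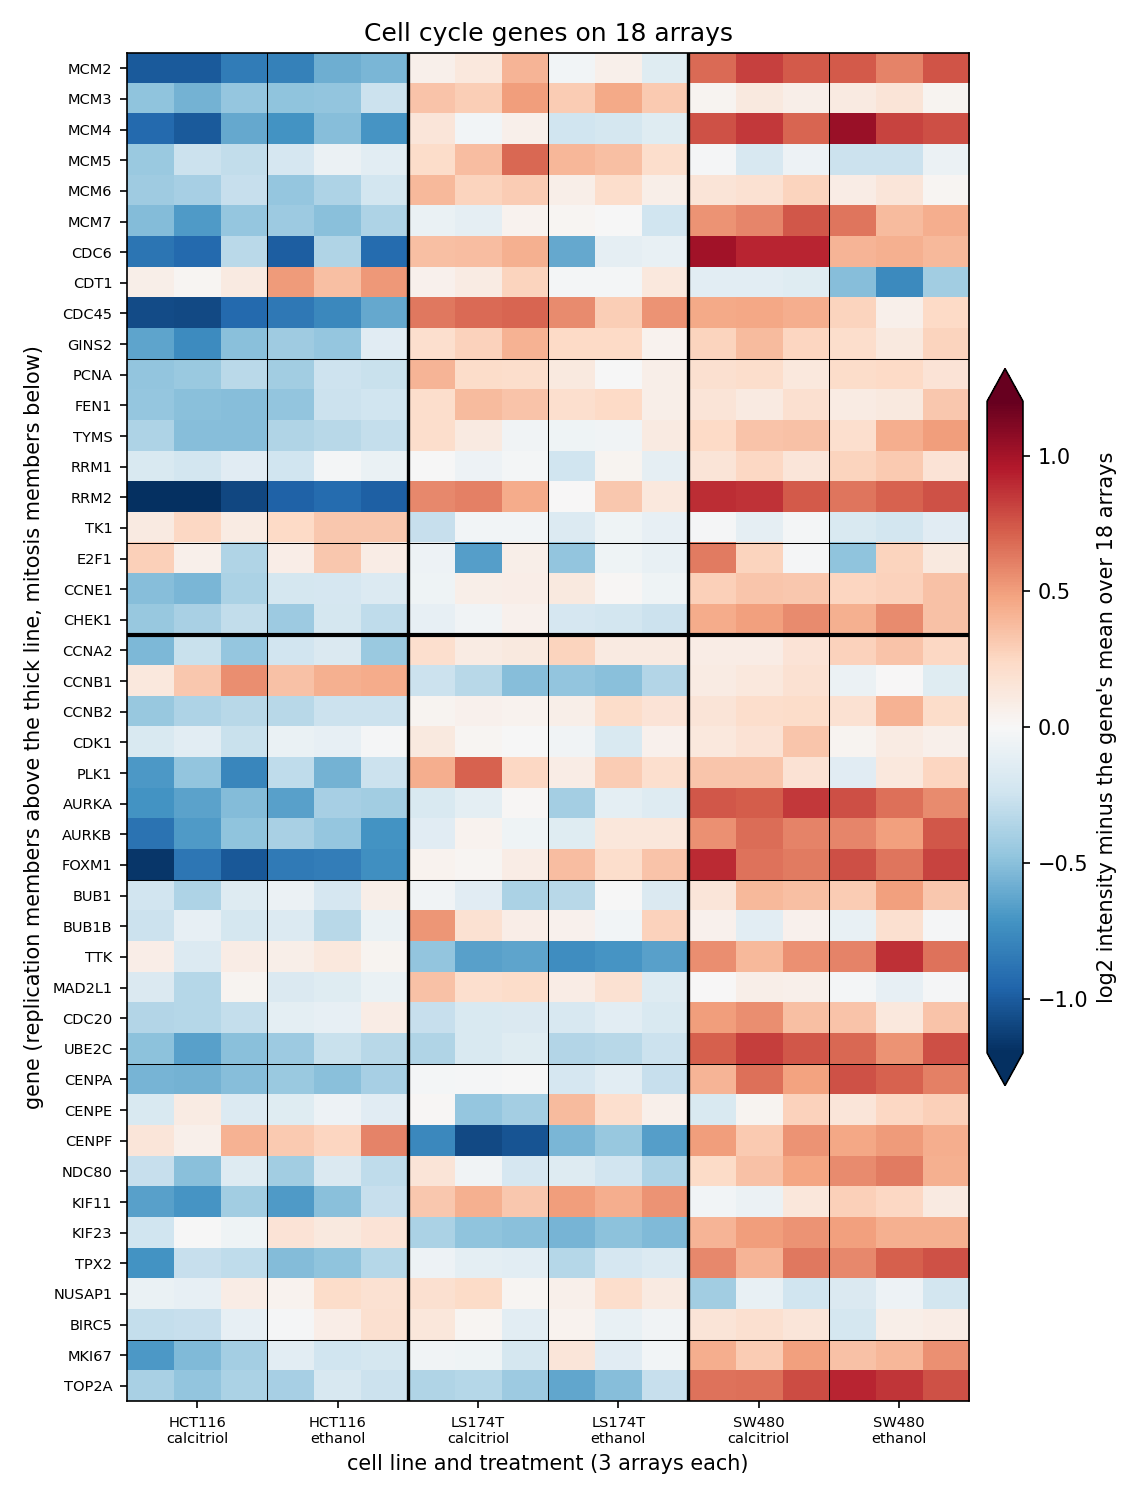
Level of each measured member (rows, by role) on each of the 18 arrays (columns, 3 per group), as log2 intensity minus the gene's mean over all arrays (red above the mean, blue below; the scale ends at 1.2). HCT116 columns are blue for most genes and SW480 columns red, while CDT1 and TK1 run the other way and CCNB1 is highest in HCT116. In ethanol the mitosis member NUSAP1 is also highest in HCT116 and lowest in SW480.

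In HCT116 nearly all members were a little lower after calcitriol, and none passed the test. Of 44 members 40 had a difference below 0, where 49.3% of all genes did. Their median difference was −0.14, against 0.00 over all genes. With the arrays set to a common median in place of quantile normalisation, which moved the median of all genes in HCT116 to 0.09, 31 members were below 0 and 40 were below that median. Limma called 0 members in HCT116, where 0.0729% of all genes passed. At an unadjusted p under 0.05 there were 12 members, all lower, where 5.13% of all genes were lower and 5.62% higher at that level. All 3 calcitriol arrays lay below all 3 ethanol arrays for 17 members, where 7.56% of all genes did so, and above them for 0 members, where 7.99% did. With log2 values of the raw intensities and no background correction, CDT1 passed and was the single member called.

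The 5 members with the smallest p in HCT116 came from both arms. CDT1 had 9.61, 9.56 and 9.64 with calcitriol, against 10.05, 9.90 and 10.05 in ethanol, a difference of −0.40 ± 0.09 (SE; limma adjusted p = 0.157). CCNE1, the cyclin E that drives entry into S phase, had 8.57, 8.53 and 8.69 with calcitriol and 8.87, 8.88 and 8.91 in ethanol (−0.29 ± 0.07, adjusted p = 0.183). MKI67, the proliferation marker that coats mitotic chromosomes, had 7.72, 7.88 and 8.0 with calcitriol and 8.28, 8.17 and 8.20 in ethanol (−0.35 ± 0.10, adjusted p = 0.22). In each of these genes every calcitriol array lay below every ethanol array, and the same held for the next pair. CDC20, the activator of the anaphase-promoting complex, had 11.95, 11.96 and 12.02 with calcitriol and 12.18, 12.20 and 12.39 in ethanol (−0.28 ± 0.08, adjusted p = 0.259). KIF23, a motor of the central spindle, had 9.71, 9.93 and 9.89 with calcitriol and 10.11, 10.06 and 10.10 in ethanol (−0.25 ± 0.07, adjusted p = 0.265).

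By role, 9 of 10 licensing and helicase genes of the replication arm were below 0 in HCT116 with a median of −0.20, among them MCM2 at −0.30, GINS2, a subunit of the active helicase, at −0.29 and CDC45, which joins it, at −0.28. CDC6, which loads the helicase with CDT1, was at 0.04 ± 0.18, but its probe was detected on 1 of 3 arrays in each HCT116 group, so this is not a measured exception. All 6 fork and nucleotide genes were below 0 (median −0.14), with RRM2 at −0.32 and RRM1 at −0.07. The 8 cyclins, kinases and the factor FOXM1 of the mitosis arm were all below 0 (median −0.14), from PLK1, the Polo kinase, at −0.27 to CCNB1 at −0.07. Of 9 kinetochore and spindle genes 7 were below 0 (median −0.11), with BIRC5 at −0.31 and the motor CENPE at 0.03. Of 6 checkpoint and anaphase genes 5 were below 0 (median −0.13). No adjusted p of these members was under 0.157.

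In LS174T 4 of 44 members passed, 2 in each direction, where 6.05% of all genes did (2.81% higher, 3.24% lower). RRM2 and CDC6 of the replication arm rose, and CENPE and CENPF of the mitosis arm fell. RRM2 had 10.93, 10.95 and 10.79 with calcitriol, against 10.35, 10.67 and 10.48 in ethanol, a rise of 0.39 ± 0.10 or 1.31-fold (limma adjusted p = 0.0226). CDC6 had 6.17, 6.19 and 6.24 with calcitriol, against 5.20, 5.71 and 5.72 in ethanol, a rise of 0.66 ± 0.18 or 1.58-fold (adjusted p = 0.0371). Without background correction the difference was 0.23 (adjusted p = 0.0716). CDC6 was the dimmest member, detected on 3 calcitriol and 2 ethanol arrays of this line and on 13 of 18 arrays in all. Neither gene had an ethanol array as high as its lowest calcitriol array.

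CENPE, the kinetochore motor that aligns chromosomes, had 9.42, 8.93 and 9.00 with calcitriol, against 9.78, 9.60 and 9.46 in ethanol, a difference of −0.50 ± 0.14 or 1.42-fold lower (adjusted p = 0.0393). CENPF, a large kinetochore protein, had 9.47, 9.16 and 9.21 with calcitriol, against 9.70, 9.80 and 9.58 in ethanol, a difference of −0.41 ± 0.12 or 1.33-fold lower (adjusted p = 0.0485). Both were lower on every calcitriol array, and a second probe of CENPE gave −0.56. The gene next in p was PCNA, the sliding clamp of the replication fork, which had 12.65, 12.46 and 12.45 with calcitriol and 12.35, 12.23 and 12.31 in ethanol (0.22 ± 0.08, adjusted p = 0.121). FOXM1 followed at −0.26 ± 0.09 (adjusted p = 0.13).

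Each of the 4 calls in LS174T depended on single arrays. When each of the 18 arrays was left out in turn, RRM2 and CDC6 passed in 14 fits, CENPE in 12 and CENPF in 5. Without LS174T ethanol array 1, the adjusted p was 0.117 for RRM2, 0.176 for CDC6, 0.165 for CENPE and 0.127 for CENPF, with differences of 0.32, 0.49, −0.42 and −0.41. Without LS174T calcitriol array 2, it was 0.0874 for RRM2, 0.0895 for CDC6, 0.16 for CENPE and 0.172 for CENPF. The direction was kept in every such fit. Of the 4 calls, 0 were left without either of these arrays, 1 without LS174T calcitriol array 3, and 2 without LS174T calcitriol array 1, LS174T ethanol array 2, SW480 calcitriol array 2 or SW480 ethanol array 2.

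The replication arm as a whole lay above 0 in LS174T, with 17 of 19 members and a median of 0.12, where 53.7% of all genes lay below 0 and their median was −0.02. Set to a common median, the arrays gave 0.21 for this arm and 0.17 for the mitosis arm, beside 0.04 for all genes. All 10 licensing and helicase genes were above 0 (median 0.16), with MCM4 at 0.26, MCM2 at 0.24 and MCM6 and CDC45 at 0.20 each, none of which passed. Of the mitosis members 15 of 25 were above 0 (median 0.07), from PLK1 at 0.27 to CENPE. The treatments did not overlap for 16 members, 11 higher with calcitriol, where 10.2% of all genes were, and 5 lower, where 13.3% were.

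In SW480 only CDT1 passed, 1 of 44 members, where 2.46% of all genes did (0.788% higher). It had 9.41, 9.41 and 9.39 with calcitriol, against 9.03, 8.77 and 9.12 in ethanol, a rise of 0.43 ± 0.09 or 1.35-fold (limma adjusted p = 0.0232). The calcitriol arrays lay above every ethanol array and close together. Left out in turn, any calcitriol array of the line or ethanol array 2 ended the call, with adjusted p of 0.0781, 0.0663, 0.0517 and 0.113 and differences of 0.42, 0.42, 0.43 and 0.33. The call also ended with the median raw intensity of the array as a covariate (adjusted p up to 0.161 over the alternatives tried). That intensity was 146, 155 and 165 on the SW480 calcitriol arrays, against 181, 168 and 149 on the ethanol arrays, and its part in the result was not tested further.

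The other SW480 members with small p did not pass. CDC6 had 6.83, 6.73 and 6.73 with calcitriol and 6.23, 6.24 and 6.20 in ethanol, 3 detected arrays in each group, a difference of 0.53 ± 0.18 (adjusted p = 0.13), or 0.23 without background correction. CDC45 had 10.76, 10.77 and 10.75 with calcitriol and 10.57, 10.36 and 10.55 in ethanol (0.26 ± 0.09, adjusted p = 0.141). Both genes had all calcitriol arrays above the ethanol arrays, as did CDC20, with 12.80, 12.86 and 12.66 against 12.65, 12.43 and 12.65 (0.20 ± 0.08, adjusted p = 0.247). CENPA, the histone variant that marks centromeres, had 10.66, 10.92 and 10.73 with calcitriol and 11.01, 10.96 and 10.85 in ethanol, which overlapped (−0.17 ± 0.08, adjusted p = 0.27). In all 10 members had their calcitriol arrays above the ethanol arrays without overlap, where 9.73% of all genes did, and 2 below, where 12.3% did. Of 19 replication members 13 were above 0 (median 0.10), and of 25 mitosis members 9 were (median −0.02), where 51.4% of all genes were below 0. Median scaling gave 0.01 and −0.12 in the 2 arms, beside −0.09 for all genes, and without SW480 calcitriol array 2 the mitosis median was 0.02. In SW480 7 of 9 kinetochore and spindle genes were below 0, with a median of −0.15, from KIF11, the motor that builds the bipolar spindle, at −0.20 to BIRC5 at 0.18. Neither end was shared by the gene's second probe, which was detected on 18 arrays in both cases. It gave 0.035 for KIF11 and 0.0087 for BIRC5 in SW480.

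**Figure D3:**
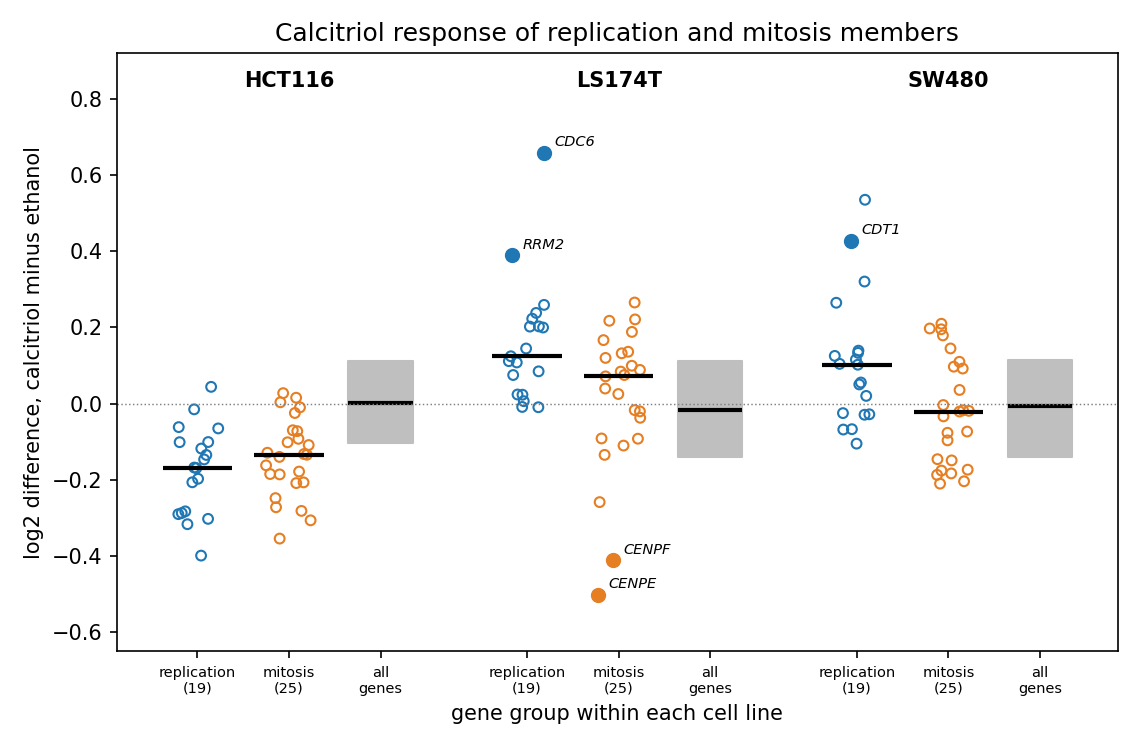
Difference between calcitriol and ethanol (y axis, log2 units) for each measured member, by cell line and arm (x axis), with black bars at the medians and filled, named points for members past an adjusted p of 0.05; the grey boxes show the quartiles of all genes around their median. The replication median is −0.17 in HCT116, 0.12 in LS174T and 0.10 in SW480, and the mitosis median −0.13, 0.07 and −0.02.

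Averaged over the 3 lines, CDC6 alone passed, at 0.41 ± 0.10 (limma adjusted p = 0.0401), where 2.73% of all genes did. Its average combined 0.04 in HCT116, where 1 of 3 arrays detected it in each group, with 0.66 in LS174T and 0.53 in SW480. The call held in 5 of 18 fits that left out an array, with adjusted p up to 0.083 and differences from 0.35 to 0.48, and the average was 0.16 without background correction. CENPF followed at −0.21 ± 0.07 (adjusted p = 0.134) and FOXM1 at −0.16 ± 0.05 (adjusted p = 0.14).

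The responses themselves differed among the lines for 3 of 44 members by limma's F-test, where 5.55% of all genes passed. All 3 are replication members. CDT1 differed most (adjusted p = 0.00388), at 0.43 in SW480 and 0.11 in LS174T, against −0.40 in HCT116. The SW480 response exceeded that of HCT116 by 0.83 ± 0.13 (adjusted p = 0.00565, where 2.49% of all genes passed), and the LS174T response exceeded it by 0.51 ± 0.13 (adjusted p = 0.0455, where 2.98% passed). RRM2 (F-test adjusted p = 0.015) had 0.39 in LS174T and 0.13 in SW480, against −0.32 in HCT116. Its LS174T response exceeded that of HCT116 by 0.71 ± 0.14 (adjusted p = 0.0085). CDC45 (F-test adjusted p = 0.0282) had 0.26 in SW480 and 0.20 in LS174T, against −0.28 in HCT116, where its arrays read 9.24, 9.22 and 9.37 with calcitriol and 9.45, 9.54 and 9.69 in ethanol. The SW480 response of CDC45 exceeded that of HCT116 by 0.55 ± 0.13 (adjusted p = 0.0381).

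CDC20 passed in that pair too, by 0.48 ± 0.12 (adjusted p = 0.0456), and it was the single mitosis member with a difference of responses past the threshold. Between SW480 and LS174T 0 members passed, where 3.12% of all genes did, and 7 members were past an unadjusted p of 0.05, where 17.1% of all genes were. CENPA came nearest, its SW480 response being lower by 0.36 ± 0.11 log2 units (adjusted p = 0.0856). With any array left out, CDT1 between SW480 and HCT116 (adjusted p up to 0.0187) and RRM2 between LS174T and HCT116 (up to 0.0268) still passed. CDC45 passed in 10 of 18 such fits, CDT1 between LS174T and HCT116 in 4 and CDC20 in 2.

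**Figure D4:**
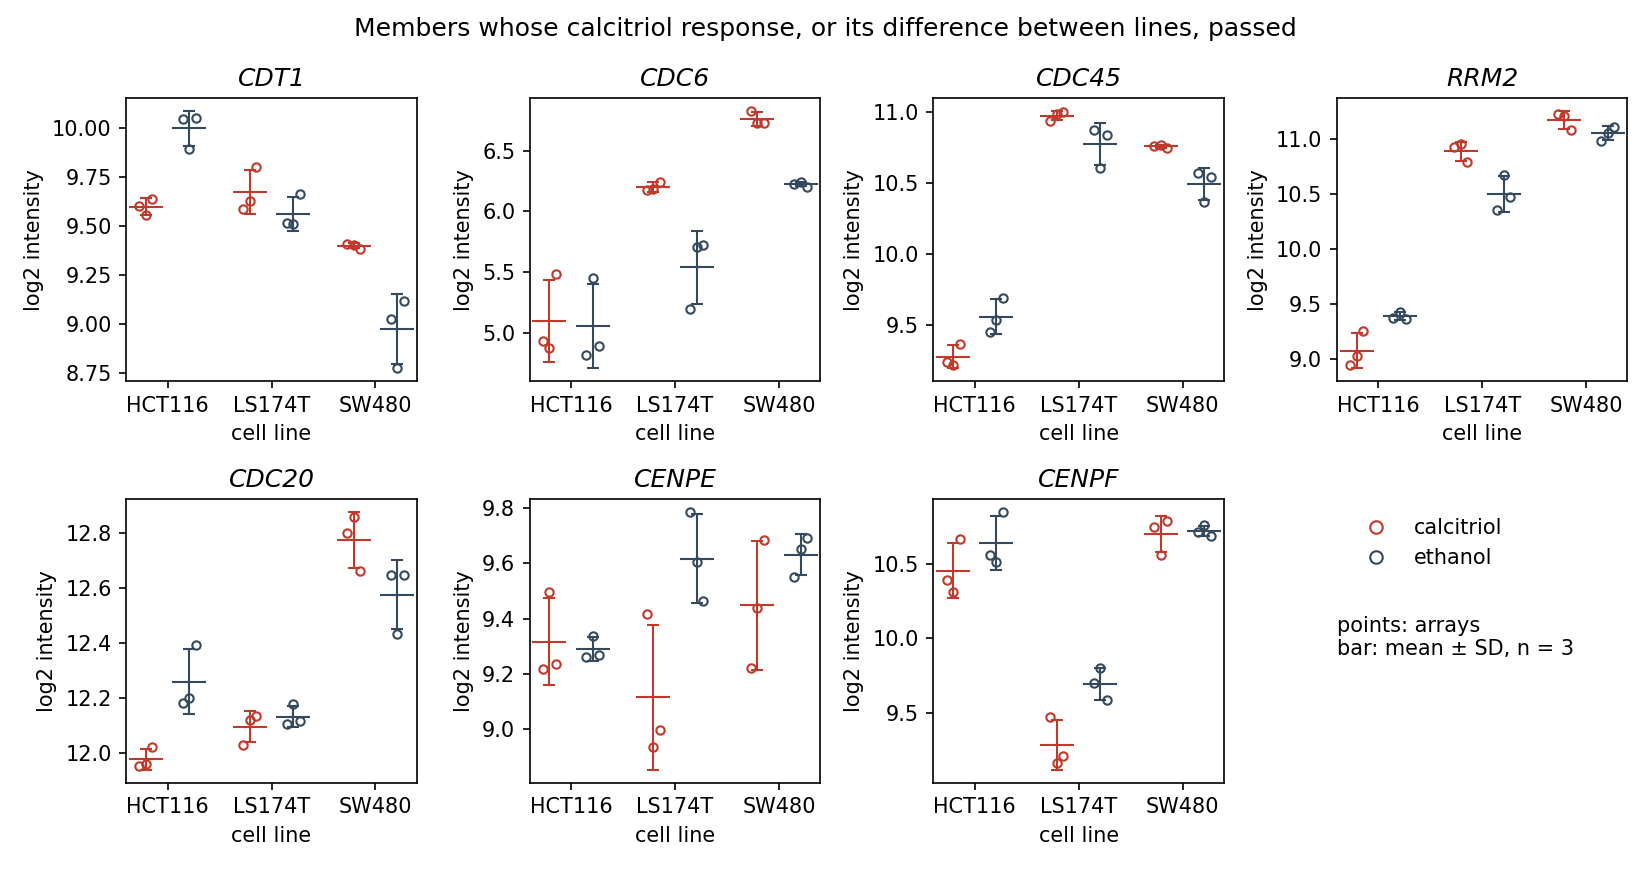
Log2 intensity (y axis) of the 7 members with a response or a difference of responses past the threshold, in each line (x axis), calcitriol in red to the left of ethanol in dark grey; points are arrays and bars the mean ± SD of 3. CDT1 is below ethanol in HCT116 and above it in SW480, and CENPE and CENPF are below ethanol in LS174T.

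The differences between lines had larger medians over the replication members than over the mitosis members, and no test was made between the 2 arms. All 19 replication members had a more positive response in LS174T than in HCT116, with a median difference of 0.31, and 20 of 25 mitosis members did, with a median of 0.20. Over all genes the median was −0.02. In the comparison of SW480 with HCT116, 18 of 19 replication members (median 0.28) and 16 of 25 mitosis members (median 0.12) had the more positive response in SW480. Within a line, the replication median minus the mitosis median was −0.03 in HCT116, 0.05 in LS174T and 0.12 in SW480. Computed on each array, this gap had an SD between arrays of a treatment of 0.07, 0.10 and 0.06 in the same order. A sign below 0 in HCT116 together with a sign above 0 in LS174T was seen for 16 of 19 replication members and 13 of 25 mitosis members, where 22.7% of all genes showed it. These 2 lines share no arrays. The members are not independent of each other. Residuals of pairs of replication members, after group means were taken out, correlated at a mean r of 0.15 over the 18 arrays, of mitosis members at 0.12 and of 1 gene from each arm at 0.07, against 0.00 for pairs of all genes, and the pairs share the same arrays.

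The arms can be followed on each array by the median over members of the deviation from each gene's mean. For replication members it was −0.47, −0.51 and −0.38 on the HCT116 calcitriol arrays, against −0.43, −0.33 and −0.26 in ethanol, and the 2 treatments overlapped. Measured from each gene's mean over the line's own ethanol arrays, the same arrays had −0.16, −0.18 and −0.16 with calcitriol, against −0.09, 0.04 and 0.04 in ethanol. They did not overlap, but that centring itself draws the ethanol values towards 0. By the same centring the SW480 arrays had 0.05, 0.08 and 0.04 with calcitriol, against 0.00, −0.02 and 0.05 in ethanol, and overlapped. In LS174T the deviation from the mean over all arrays was 0.20, 0.13 and 0.27 with calcitriol, against 0.01, 0.02 and 0.05 in ethanol, without overlap. The SW480 arrays had 0.26, 0.34 and 0.27 with calcitriol and 0.22, 0.27 and 0.27 in ethanol, which overlapped. For mitosis members HCT116 had −0.35, −0.34 and −0.28 with calcitriol, against −0.18, −0.20 and −0.21 in ethanol, without overlap. LS174T had −0.02, −0.05 and −0.12 with calcitriol, against −0.15, −0.12 and −0.15 in ethanol, and SW480 had 0.33, 0.33 and 0.36 with calcitriol, against 0.35, 0.41 and 0.35 in ethanol, both with overlap. The centring of each gene sets the 0 of these levels, so they do not rank the arms within a line, and they carry no test.

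**Figure D5:**
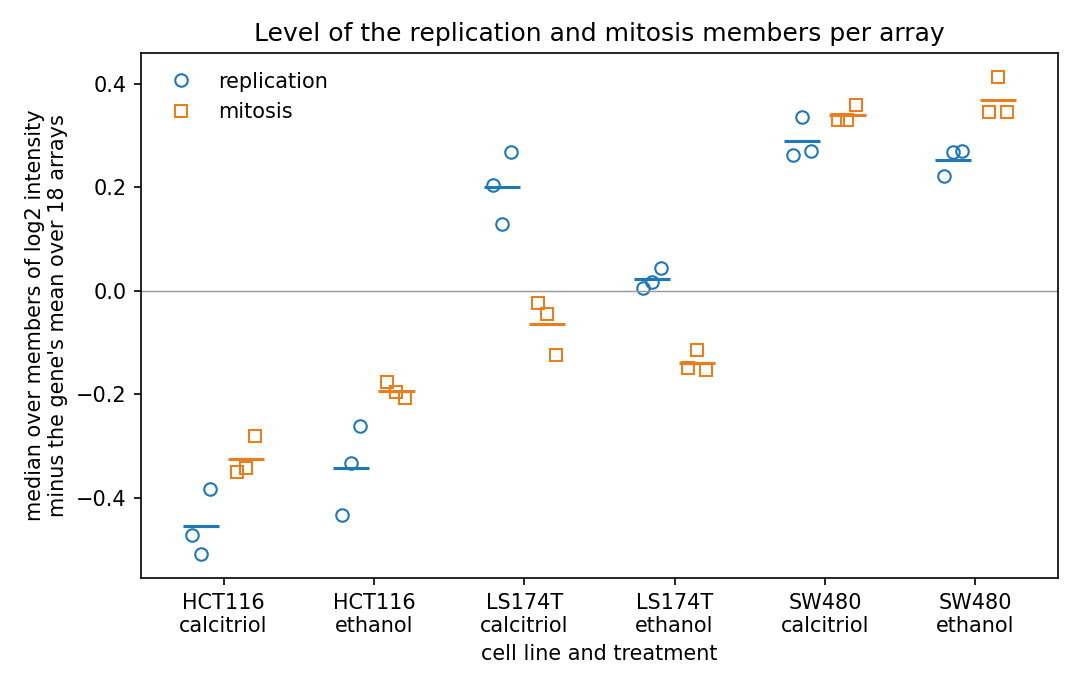
Median deviation of the replication members (circles) and the mitosis members (squares) from each gene's mean over 18 arrays (y axis, log2 units), for each array of the 6 groups (x axis), with bars at the group means. In LS174T the replication members are higher on every calcitriol array than on any ethanol array, and in HCT116 the mitosis members are lower.

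The members can also be grouped by promoter word in place of arm. The 13 members with an E2F word had median responses of −0.13 in HCT116, 0.11 in LS174T and 0.10 in SW480, and the 15 with a CHR core had −0.13, 0.07 and −0.03. Among replication members the 10 with an E2F word had medians of −0.13, 0.12 and 0.11, and the 7 without one had −0.17, 0.14 and 0.06. Among mitosis members the 14 with a CHR core had −0.13, 0.08 and −0.03, and the 5 without one had −0.13, −0.02 and −0.07. In LS174T the −0.02 rests on 5 genes, and the median of all mitosis members had an SD between arrays of 0.05 there. A difference by CHR core was not tested.

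Other genes of the 2 pathways, listed with earlier results known, lay on the same side as the members. Of 45 measured other replication genes 36 were below 0 in HCT116 (median −0.16), 34 above 0 in LS174T (median 0.15) and 30 above 0 in SW480 (median 0.05). Below 0 lay 49.3%, 53.7% and 51.4% of all genes in HCT116, LS174T and SW480. Of these 45 genes 2 rose in LS174T, where 2.81% of all genes did, and 0 passed in HCT116 and SW480. RFC5, a subunit of the clamp loader, rose by 0.30 ± 0.08 (limma adjusted p = 0.0283), and TIPIN, a fork protection protein, rose by 0.44 ± 0.10 (adjusted p = 0.0172), and they passed in 13 and 15 of 18 fits that left out an array. Of 64 other mitosis genes 50 were below 0 in HCT116 (median −0.13), 38 above 0 in LS174T (median 0.03) and 27 above 0 in SW480 (median −0.02). In LS174T 2 of these rose, the kinetochore genes CENPI by 0.67 ± 0.14 (adjusted p = 0.00866) and KNTC1 by 0.35 ± 0.10 (adjusted p = 0.0477), and CDC25B, the phosphatase that activates CDK1, fell by 0.51 ± 0.08 log2 units (adjusted p = 0.0011), where 3.24% of all genes fell. With each array left out CENPI and CDC25B passed in all 18 fits, and KNTC1 in 3. Averaged over the lines the centrosome kinase NEK2 fell by 0.19 ± 0.04 log2 units (adjusted p = 0.0256), a call kept in 8 of 18 such fits.

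Among 35 measured regulators of G1 and of the cell cycle's control, 3 fell in LS174T, where 3.24% of all genes did, 1 rose in SW480, where 0.788% did, and 0 passed in HCT116. In HCT116 6 were lower and 0 higher at an unadjusted p under 0.05, where 5.13% and 5.62% of all genes were. In LS174T the G1 kinase CDK6 had a mean level of 9.56 ± 0.07 with calcitriol, against 10.02 ± 0.12 in ethanol (SD, n = 3), and fell by 0.46 ± 0.10 log2 units (limma adjusted p = 0.00716). Its partner CCND2, a cyclin D, fell there by 0.34 ± 0.09 (adjusted p = 0.0432), and CDKN1B, the CDK inhibitor p27, fell by 0.29 ± 0.08 (adjusted p = 0.0483). With each array left out CDK6 passed in all 18 fits, CCND2 in 5 and CDKN1B in 3. Under other processing or models CDK6 passed in 8 of 10 settings (limma adjusted p up to 0.277), CCND2 in 4 of 9 and CDKN1B in 4 of 10. CDKN1B differed by 0.02 in HCT116 (adjusted p = 0.952) and −0.14 in SW480 (adjusted p = 0.411). CDK6 also fell on average over the 3 lines, by 0.34 ± 0.05 (adjusted p = 0.00226). That call was kept in 8 of 9 such settings (adjusted p up to 0.121). CCND3, another cyclin D, rose in SW480 by 0.35 ± 0.09 (adjusted p = 0.0423), a call kept in 4 of 18 such fits.

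CDKN1A, the CDK inhibitor p21, had mean levels of 11.77 ± 0.05 with calcitriol and 11.94 ± 0.04 in ethanol in HCT116, of 11.97 ± 0.05 and 12.28 ± 0.15 in LS174T, and of 10.29 ± 0.09 and 10.26 ± 0.14 in SW480 (SD, n = 3 each). Its differences were −0.17 (limma adjusted p = 0.534), −0.31 (adjusted p = 0.0562) and 0.03 (adjusted p = 0.897), so none passed. MYC, a growth regulator of colorectal tumours, differed by −0.06 in HCT116, 0.05 in LS174T and 0.15 in SW480, with adjusted p of 0.869, 0.833 and 0.368. For CCND1, the main cyclin D of many epithelia, the differences were −0.11, 0.21 and −0.01 (adjusted p of 0.633, 0.109 and 0.985). E2F2 differed by −0.26, 0.23 and 0.04 (adjusted p of 0.332, 0.19 and 0.894). MYBL2, which encodes B-MYB, differed by −0.13, −0.01 and 0.28 with none past the threshold, and its probe was dim in HCT116, detected on 1 calcitriol and 2 ethanol arrays.

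Of the members, 17 had more than 1 probe that passed the detection filter, and some second probes gave other values. For PCNA a dimmer probe detected on all 18 arrays differed by −0.52 in HCT116 and 0.58 in SW480, where the probe used gave −0.10 and −0.03. A second MAD2L1 probe gave −0.56 in HCT116, against −0.02 for the one used. For MCM7 a dimmer probe gave 0.58 in LS174T, against 0.02, and for CENPA a second probe gave −0.08 there, against 0.19. Levels of different probes are not comparable, and which transcripts each probe reads was not examined here.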

How the data were processed

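The members, their arms and the other gene lists were chosen with earlier results of these data known. Gene expression was read on Illumina HT-12 BeadChips from 18 samples, placed in 6 groups by the cell line and treatment in their labels. The authors deposited probe intensity on a linear scale, not normalised, with a detection p-value beside each, per the file headers. They also deposited a log2 table of the same arrays, made with limma per the submitters' processing notes, and each of its 18 columns correlated best with its own raw column. Its values differed from those computed here by a median of 0.000195 and at most 0.201, so its scale is background-corrected, quantile-normalised log2 intensity, with column medians at 5.19.

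Background correction and quantile normalisation used neqc of limma 3.58.1 in R 4.3.3, with an offset of 16 and the background taken from the detection p-values. The offset shrinks differences of dim probes. Of 47323 probes 25586 passed the filter (detection p under 0.05 on at least 3 arrays); 887 rows without an identifier were left out. The platform annotation gave 30113 probes 1 gene symbol, 8 several and 17202 were not listed, and 30074 were updated through Entrez identifiers. A model of 6 group means was fitted over the 18 arrays by limma's lmFit and eBayes (12 residual degrees of freedom), with Benjamini-Hochberg adjustment over 13712 genes and a threshold of 0.05; scripts were tested on simulated data. For genes with several RefSeq promoters the first listed was used.

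Values are given for members past the threshold in a calcitriol contrast or a difference of responses, for the members with the smallest p in a line up to 5, for the 3 widest and 3 narrowest ranges per arm in ethanol, for up to 6 other pathway genes past the threshold per list and line, and for CDKN1A, CDKN1B, MYC, CCND1, E2F2 and MYBL2. Other members are named as examples of their role. Samples that share a replicate number did not deviate together (correlations of −0.09 to 0.00 over all genes), so the model has no replicate block. The labels and files name no slides or scan dates. Median scaling, no background correction, the deposited table, other filters, probes and variance settings, single-line fits, array brightness, a replicate block and leaving out each array were tried.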

Additional observations from a re-analysis of the deposited data

Results flagged for a closer look

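Among the members, CDT1, RRM2 and CDC45 were flagged, 3 of 44, where 5.55% of all genes passed the same test. Limma's F-test found that their responses to calcitriol differed among the lines (adjusted p = 0.00388, 0.015 and 0.0282). The pairs behind this were SW480 against HCT116 for CDT1 (adjusted p = 0.00565) and CDC45 (0.0381), LS174T against HCT116 for CDT1 (0.0455) and RRM2 (0.0085), and SW480 against HCT116 for CDC20 (0.0456).

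The same F-test picked out 13 other genes of the cell cycle, named here after their values were seen. Of 45 other replication genes 6 passed, where 5.55% of all genes did, and 5 of these 6 were lower in HCT116 and higher in both other lines by the sign of their difference. Picking genes by this test favours opposed signs, and the share with this pattern among all genes that passed was not counted. GINS3, of the replicative helicase (adjusted p = 0.0065), differed by 0.20 in SW480 and 0.16 in LS174T, against −0.45 in HCT116. For POLA2, a subunit of DNA polymerase alpha (0.0194), the differences were 0.15, 0.15 and −0.48 in the same order. CHAF1A, of the chromatin assembly factor that follows the fork (0.0245), had 0.29, 0.35 and −0.60. The clamp loader subunits RFC3 (0.0328) and RFC5 (0.0283) had 0.10 each in SW480, 0.24 and 0.30 in LS174T, and −0.33 and −0.21 in HCT116. PRIM2, of the primase (0.0174), had 0.57 in SW480, −0.32 in LS174T and −0.61 in HCT116.

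Of 64 other mitosis genes 5 passed, where 5.55% of all genes did. CENPM of the kinetochore (adjusted p = 0.0187) differed by 0.24 in SW480, 0.01 in LS174T and −0.40 in HCT116, HJURP, the CENPA chaperone (0.0391), by 0.05, 0.20 and −0.28, and the kinase PBK (0.0391) by 0.18, 0.10 and −0.39. CENPI (0.0432) had −0.20, 0.67 and 0.31, and CDC25B (0.0153) had −0.14, −0.51 and 0.11. Of 35 regulators 2 passed, CCND3 (0.0315) with 0.35, 0.05 and −0.21, and TFDP2, a partner of E2F factors (0.0297), with −0.45, 0.36 and 0.18. With each of the 18 arrays left out, GINS3, PRIM2, CENPM and CDC25B passed in all 18 fits, POLA2 in 16, CHAF1A in 15, TFDP2 in 14, RFC5 and CCND3 in 11, RFC3 in 8, CENPI in 6, and HJURP and PBK in 5. Under 9 other settings of processing or model, TFDP2 passed in 8, and GINS3, POLA2, RFC5, CENPM and CDC25B in 7 each. PRIM2, RFC3, CENPI, HJURP, PBK and CCND3 passed in 6 of these 9 each, and CHAF1A in 7 of 8.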

How the results depend on the processing

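The low counts of members called rested on the settings, while the number differing among lines in ethanol was 37 to 40 in every fit run for it. The deposited table changed none of the counts of calls. Median scaling left 1 member called in LS174T (7 below 0) and 0 in SW480, in the average over lines and in the F-test of responses; its replication and mitosis medians were −0.081 and −0.044 in HCT116, 0.21 and 0.17 in LS174T and 0.011 and −0.12 in SW480. Over all genes it made 100% of calls in HCT116, 65.1% in LS174T and 6.56% in SW480 higher, against 70% (7 of 10), 46.4% and 32.0%. Without background correction 1 member passed in HCT116, 2 in the average and 8 in the F-test. Without a filter on dim probes 2 passed in LS174T and 0 in the average, and with detection on all arrays 0 passed in the average, where CDC6 is no longer tested, and 5 in the F-test. The F-test called 5 with a gene's probes averaged and 8 with a robust trended prior. In LS174T MCM4 also passed with the probes averaged (0.34, limma adjusted p = 0.023), and PCNA with that prior (adjusted p = 0.0445). Up to 5 members passed there over the alternatives tried. Fits to the arrays of 1 line called 0 in LS174T and SW480, and with array brightness as a covariate 0 passed in SW480. The replicate block, whose numbers do not pair the samples, left 1 call in LS174T, 0 in SW480, 0 in the average and 1 in the F-test. With each array left out, 0 to 4 members passed in LS174T, 0 to 1 in SW480 and in the average, and 2 to 4 in the F-test. In these fits the mitosis median was 0.021 to 0.087 in LS174T and −0.062 to 0.016 in SW480, the replication median 0.061 to 0.10 in SW480, and replication minus mitosis −0.055 to 0.036 in HCT116 and 0.045 to 0.14 in SW480.

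Small differences that never passed changed sign. Under median scaling MYC became 0.0078 in HCT116, MYBL2 0.026 in LS174T, and CCND1 0.015, CDKN1A −0.061 and E2F2 −0.074 in SW480. MYBL2 became 0.000756 in LS174T without background correction, and with the brightness covariate CCND1 became 0.0028 and CDKN1A −0.021 in SW480. With arrays left out, MYBL2 ran from −0.22 to 0.18 in LS174T, and in SW480 CCND1 from −0.066 to 0.029, CDKN1A from −0.031 to 0.11 and E2F2 from −0.065 to 0.093. Where no sentence gives a cause, the cause was not tested. The slide block was not run, since no slides are named. With 3 arrays a group, a residual SD of 0.108 limits what could pass, and CDC6 and MYBL2 were dim, with some arrays not detected.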
